A study of Mus musculus with 24 samples.

Results

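The major urinary protein genes (*Mup* genes) studied here were *Mup3*, *Mup7*, *Mup14*, *Mup15*, *Mup20* and *Mup21*, 6 of the 24411 genes counted in mouse liver. They were taken by symbol, from a list chosen by read counts and fold changes of these same libraries. Lower levels in HKO than control livers at 0 h and in LKO than control livers from 12 to 96 h are counted as part of that choice, so those values are given as a description, without a test. LKO against control livers at 0 h was tested, and the response to acetaminophen (APAP) was tested in control livers, without the LKO pools. The count tables hold 20 *Mup* symbols, so 14 others remain, and the lowest share of all *Mup* reads that the 6 took in a library was 99.56%.

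The study asked how loss of the cell-cycle repressors E2f7 and E2f8, with or without a change in hepatocyte ploidy, alters the response of the liver to APAP overdose. Messenger RNA of whole livers of male mice aged 2.5 months, fasted overnight, was sequenced. LKO mice carried floxed *E2f7* and *E2f8* alleles, the R26R-mTmG reporter and Alb-Cre, which deletes in cells of the liver lineage from development onwards. Their controls were littermates with the same floxed alleles and reporter but without Cre, on a mixed and mainly FVB background. In HKO mice, adults with the same floxed alleles received AAV8-TBG-Cre, a virus whose promoter acts in hepatocytes, and their floxed controls received AAV8-TBG-Null, without Cre. Single livers were sequenced at 0 h from 3 HKO, 3 AAV8-TBG-Null control, 4 LKO and 4 control mice, fasted but without APAP. At 12, 24, 48, 72 and 96 h after 300 mg/kg APAP there was 1 library for control and 1 for LKO, each a pool of RNA from 3 mice.

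A library held 12665686 to 19499897 reads on genes, with a median of 16500386. Levels are given in CPM (counts scaled to a common library size by the trimmed mean of M-values, TMM), and 3 counts, the lowest level taken as detectable, correspond to 0.154 to 0.237 CPM, a limit of counting error only. *E2f8*, a target of the knockouts, had 14.9 to 26.4 CPM in AAV8-TBG-Null livers and 30.7 to 83.9 CPM in livers labelled HKO, and 11.8 to 18.8 and 17.8 to 34.1 CPM in control and LKO livers, so it was not lower in either. *E2f7* had at most 22 counts at 0 h. The counts span whole genes, including exons outside the deleted part, and so do not check the genotype, and directions follow the labels. The paper reported lower *E2f8* in HKO livers from reads in part of its exons, and Cre recombination of the reporter in nearly all HKO hepatocytes. All 8 hepatocyte markers (such as *Alb*, *Ttr* and *Cps1*) were detected in every library, and their sum at 0 h ranged from 52362 to 123127 CPM. In whole liver, fewer hepatocytes and less *Mup* RNA per hepatocyte cannot be told apart.

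Major urinary proteins are small lipocalins, barrel-shaped carriers that hepatocytes secrete into blood and that pass into urine, where they bind and slowly release volatile pheromones. Male mice make far more of them than females, and pulses of growth hormone acting through Stat5b, together with androgen, thyroid hormone and glucocorticoid, drive their transcription in liver. The genes form a tandem array of recent duplicates. *Mup20* encodes darcin, a male pheromone protein that attracts females, and *Mup3*, *Mup20* and *Mup21* are more diverged than the central, near-identical copies, to which *Mup7*, *Mup14* and *Mup15* belong.

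In GENCODE vM21 on GRCm38, the build of the deposited counts (mm10), the array runs over chr4:59956804-62150863 with 22 protein-coding *Mup* genes and 26 pseudogenes. All 6 genes lie on the minus strand, *Mup7* at chr4:60066469-60070475, *Mup14* at chr4:61300023-61304000, *Mup15* at chr4:61435790-61439743, *Mup20* at chr4:62050234-62054158, *Mup3* at chr4:62083476-62087342 and *Mup21* at chr4:62147932-62150863. The first 120 coding bases, which encode the start of the secreted precursor, are shown because they separate the near-identical genes from the diverged ones. They are read from the GRCm38 genome, 5′ to 3′ on the minus strand with the intron removed, and capitals mark bases that differ from *Mup14* in an alignment with gaps. *Mup7* is not shown because these bases are identical to those of *Mup14*. They lie at chr4:61303432-61303889 for *Mup14*, chr4:61439175-61439632 for *Mup15*, chr4:62053593-62054049 for *Mup20*, chr4:62150308-62150752 for *Mup21* and chr4:62086922-62087231 for *Mup3*.
Mup14: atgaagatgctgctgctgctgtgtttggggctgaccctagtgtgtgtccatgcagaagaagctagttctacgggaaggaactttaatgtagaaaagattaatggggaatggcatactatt
Mup15: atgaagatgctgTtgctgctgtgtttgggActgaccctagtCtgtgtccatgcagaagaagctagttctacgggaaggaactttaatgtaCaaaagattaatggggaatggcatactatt
Mup20: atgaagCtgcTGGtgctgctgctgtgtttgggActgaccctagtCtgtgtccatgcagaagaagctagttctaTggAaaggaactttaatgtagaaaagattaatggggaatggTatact
Mup21: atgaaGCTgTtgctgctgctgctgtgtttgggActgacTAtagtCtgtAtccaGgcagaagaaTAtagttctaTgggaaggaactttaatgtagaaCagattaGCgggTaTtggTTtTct
Mup3: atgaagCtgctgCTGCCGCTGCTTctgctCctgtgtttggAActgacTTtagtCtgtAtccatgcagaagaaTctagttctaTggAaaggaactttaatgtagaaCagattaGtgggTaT

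In these 120 bases *Mup15* differed from *Mup14* at 4, *Mup20* at 9, *Mup21* at 21 and *Mup3* at 27. Over the whole coding sequence, *Mup7* and *Mup14* differed at 5 of 540 bases, *Mup14* and *Mup15* at 6, and *Mup7* and *Mup15* at 7. *Mup3* and *Mup21* were 96.3% identical to each other, while *Mup3* and *Mup14* shared 85.5% and *Mup20* and *Mup14* 90.9%. A read is assigned to *Mup7*, *Mup14* or *Mup15* only where its sequence sets it apart from every other copy, so a difference among these genes alone may not suffice. Some of their differences lie in coding bases 190 to 249 (chr4:61302535-61303362 for *Mup14*, chr4:60068956-60069773 for *Mup7* and chr4:61438278-61439105 for *Mup15*), shown with the same meaning of the capitals. The capital in *Mup15* there is shared with *Mup7*.
Mup14: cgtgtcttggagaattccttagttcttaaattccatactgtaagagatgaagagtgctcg
Mup7: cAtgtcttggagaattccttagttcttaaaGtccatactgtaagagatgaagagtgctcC
Mup15: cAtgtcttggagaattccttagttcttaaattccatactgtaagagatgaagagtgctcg

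The deposited counts hold uniquely mapped reads. Of all 100-base stretches of each transcript, the share found in no other transcript of the array was 97.1% for *Mup3*, 95.5% for *Mup21*, 61.2% for *Mup20*, 12.9% for *Mup7*, 8.60% for *Mup14* and 2.66% for *Mup15*. The read length was not given in the sources used here, so 100 bases is an assumption. At 50 and 150 bases the shares were 3.64% and 22.5% for *Mup7*, 2.40% and 21.0% for *Mup14*, 0% and 9.28% for *Mup15*, and 49.5% and 68.9% for *Mup20*. At 100 bases the shared stretches of *Mup20* matched the pseudogene *Mup-ps19*, whereas 35.1%, 49.0% and 35.2% of the stretches of *Mup7*, *Mup14* and *Mup15* occurred in more than 10 genes. The aligner leaves a read that matches too many places among the unmapped reads. The levels of *Mup7*, *Mup14* and *Mup15* thus rest on a small part of their transcripts and are uncertain, and those of *Mup3* and *Mup21* rest on most of theirs, 84.4% and 80.7% even at 50 bases.

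The 250 bases before the RefSeq start (GRCm38.p6) were searched for motifs of the pathways in question, since *Mup* genes varied together. The table holds 5 of the 6 genes, and *Mup20* is not among them. *Mup3* (chr4:62087318-62087567) and *Mup15* (chr4:61439705-61439954), 1 diverged and 1 near-identical gene, are shown 5′ to 3′ on the minus strand with the letters TATATAA in capitals.
Mup3: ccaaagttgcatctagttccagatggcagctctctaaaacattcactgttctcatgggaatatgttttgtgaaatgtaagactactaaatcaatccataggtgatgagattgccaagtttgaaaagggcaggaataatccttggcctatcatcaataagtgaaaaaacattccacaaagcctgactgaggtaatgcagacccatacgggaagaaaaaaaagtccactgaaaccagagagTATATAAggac
Mup15: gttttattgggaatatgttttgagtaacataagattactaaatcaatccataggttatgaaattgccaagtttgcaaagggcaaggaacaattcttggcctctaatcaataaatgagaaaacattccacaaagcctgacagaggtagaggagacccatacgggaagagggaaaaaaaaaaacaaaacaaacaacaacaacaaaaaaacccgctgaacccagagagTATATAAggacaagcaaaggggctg

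TATATAA began -11 bases from the start in *Mup3*, -8 in *Mup21* and -25 in *Mup15*, and it was found in 2.05% of the 32851 promoters of the table on the given strand. The windows of *Mup7* and *Mup14* did not hold these letters. Both windows end before the stretch that holds them in *Mup15*, so they cannot show whether *Mup7* and *Mup14* lack TATATAA. The 5 windows held no STAT5 motif TTCNNNGAA (7.02% of promoters), no E2F motif TTTCCCGC, TTTGGCGC, TTTGCCGC or TTTCGCGC (1.86% for any of these) and no E-box CACGTG (6.02%), searched on both strands. The promoters of *Mup3* and *Mup21* were 93.4% identical over 244 aligned bases.

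All *Mup* genes together took 1.14% to 4.30% of the reads on genes in the 14 single livers at 0 h. Per kilobase of exons, *Mup3* had the highest median level, 11881 (7837 to 17966) CPM per kb, followed by *Mup20* with 5411 (1646 to 25771) CPM per kb, where parentheses give the range. *Mup7* had 752 (88.5 to 2118) and *Mup21* 732 (170.0 to 1771) CPM per kb. *Mup14* had 16.9 (1.62 to 64.5) and *Mup15* 4.70 (0.262 to 36.4) CPM per kb. *Mup3* was above *Mup20* in 13 of 14 mice. *Mup20* was above *Mup7*, *Mup21* above *Mup14* and *Mup14* above *Mup15* in 14 of 14. *Mup7* was above *Mup21* in only 6 of 14, and this pair could not be ordered. Of the neighbours in this order only *Mup21* and *Mup14* had ranges that did not overlap. Since the counts hold unique reads only, the low place of *Mup14* and *Mup15* is a place among countable reads.

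With the 4 groups of single mice pooled, 5 of the 6 *Mup* genes varied more within groups than most genes of the liver, and *Mup3* did not. The SD of log2 CPM within groups, pooled over the 4 groups of single mice, was 1.90 for *Mup15*, 1.53 for *Mup7*, 1.53 for *Mup14*, 1.00 for *Mup20* and 0.84 for *Mup21*. These lie at percentiles 99.9, 99.7, 99.7, 98.1 and 95.5 of the 13651 genes kept, whose median SD was 0.28. *Mup3* had an SD of 0.30, at percentile 52.8. This spread came mainly from the LKO cohort. Its control livers had an SD of 2.11 for *Mup7* and 1.42 for *Mup20*, against 0.26 and 0.12 in AAV8-TBG-Null livers. LKO livers had 1.78 and 1.11, against 0.38 and 0.34 in livers labelled HKO. With a prior count of 0.5 in place of 2, *Mup20* lay at percentile 92.9 and *Mup21* at 90.0, below the 95th. Across the 14 mice the highest level of *Mup15* was 139 times the lowest, against 39.8 times for *Mup14*, 23.9 for *Mup7*, 15.7 for *Mup20*, 10.4 for *Mup21* and 2.29 for *Mup3*.

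The widest range was in the LKO cohort. In the 4 control livers *Mup15* had 3.75, 12.3, 33.7 and 0.431 CPM, and in the 4 LKO livers 22.2, 0.602, 4.95 and 1.25 CPM, in the order of replicates 1 to 4. *Mup7* had 735, 2188, 1895 and 91.4 CPM in controls and 1521, 92.1, 662 and 217 CPM in LKO livers. Control mouse 4 was lowest among controls for both genes, and LKO mouse 1 was highest among LKO livers. *Mup14* had 19.9, 69.4, 89.2 and 5.73 CPM in controls and 58.0, 2.24, 19.4 and 4.96 CPM in LKO livers, in the same order of mice as *Mup15*.

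The pheromone gene *Mup20* had 3334, 11078, 23915 and 3111 CPM in controls and 9361, 1528, 5611 and 3445 CPM in LKO livers. *Mup21* had 366, 769, 907 and 179 CPM in controls and 442, 115, 601 and 316 CPM in LKO livers. *Mup3* had 12615, 16367, 19187 and 10405 CPM in controls and 10849, 9346, 14325 and 13216 CPM in LKO livers. Control mouse 3 was highest of all 8 for 5 of the 6 genes, the exception being *Mup7*, for which control mouse 2 was higher. The *Mup* share of reads on genes was 4.30% in control mouse 3 and 1.26% in control mouse 4. The ranges of control and LKO livers overlapped for every gene, as the plot of single livers shows.

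**Figure D1:**
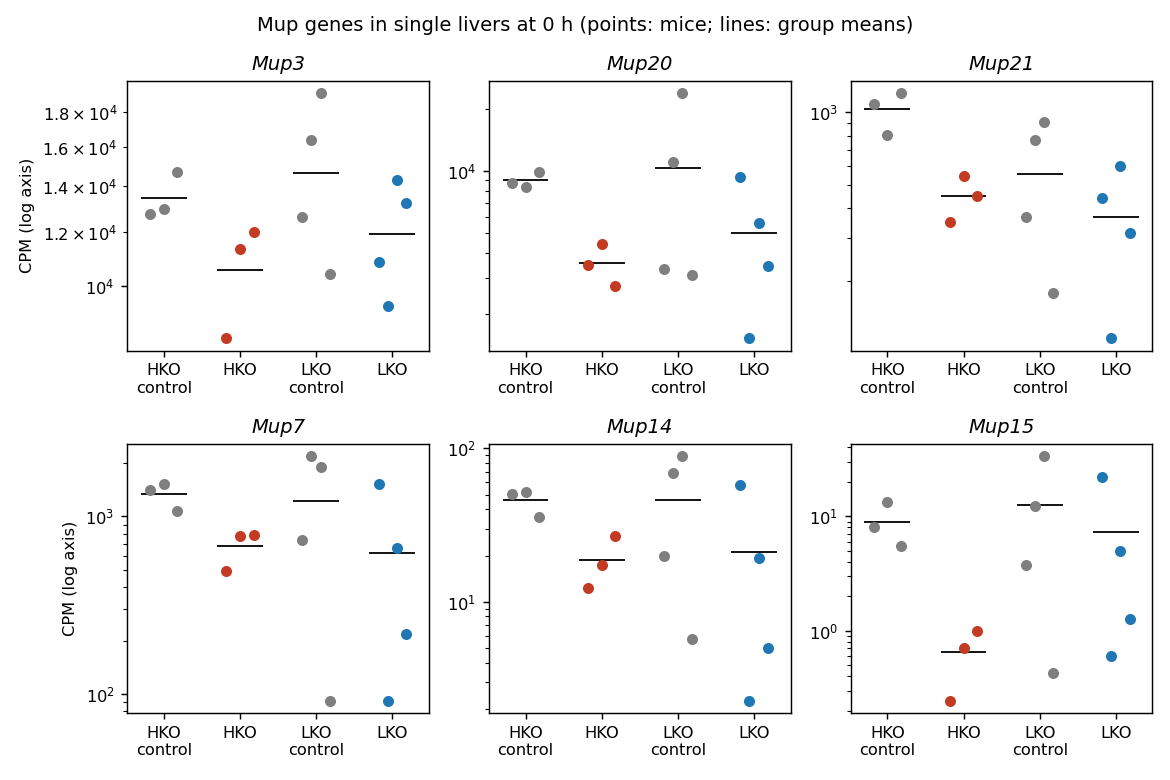
Level in CPM (log axis) of the 6 *Mup* genes in each single liver at 0 h, with 1 point per mouse and a line at the mean of the group (3 AAV8-TBG-Null control, 3 HKO, 4 control and 4 LKO mice). LKO-cohort groups overlap for all 6 genes, and the 3 livers labelled HKO lie below the 3 livers of their controls for all 6.

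LKO and control livers were compared at 0 h to ask whether lifelong loss of *E2f7* and *E2f8* alters expression before injury. No *Mup* gene was called between them by edgeR's quasi-likelihood test, where a call means a change of 1.5-fold or more with a Benjamini-Hochberg adjusted p below 0.05. Of 12426 genes tested, 0% were called, 352 had an unadjusted p under 0.05, and DESeq2 called 3 genes and no *Mup* gene. All 6 estimates were below 0, with a median log2 fold change of -0.88 beside -0.0012 over all genes tested. The lowest unadjusted p of the 6 was 0.15, for *Mup20*.

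*Mup20* averaged 10359.7 ± 9767 CPM (SD, n = 4) over control livers, while LKO livers averaged 4986 ± 3359.6 CPM (SD, n = 4), and the log2 fold change was -1.06 (SE 0.68, adjusted p = 0.999). The mean of *Mup7* was 1227 ± 983 CPM (SD, n = 4) without Cre and 623 ± 647 CPM (SD, n = 4) with it, and its log2 fold change was -0.98 (SE 0.91, adjusted p = 0.999). For *Mup3*, the steadiest of the 6, controls averaged 14643 ± 3903 CPM (SD, n = 4), LKO livers averaged 11934 ± 2254 CPM (SD, n = 4), and the log2 fold change was -0.29 (SE 0.22, adjusted p = 0.999). The others were -1.12 (SE 0.95, adjusted p = 0.999) for *Mup14*, -0.79 (SE 1.13, adjusted p = 0.999) for *Mup15* and -0.59 (SE 0.53, adjusted p = 0.999) for *Mup21*, all by edgeR's quasi-likelihood test. For all of the genes but *Mup20* these differences are smaller than the pooled SD within groups given above, for *Mup3* only just (-0.294 beside 0.296). Without control mouse 3 the estimate for *Mup15* turned to 0.41 and that for *Mup20* moved to -0.22, and without LKO mouse 1 they were -2.46 and -1.56. Scaling by library size alone moved the median of all genes by 0.13 on the log2 scale.

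In the HKO cohort, which was sequenced at 0 h only, all 6 *Mup* genes were lower in livers labelled HKO than in their AAV8-TBG-Null controls, and this contrast was one of those used to list them. *Mup20* had 8732, 8391 and 9849 CPM in controls and 3471, 4432 and 2760.1 CPM in livers labelled HKO. *Mup21* had 1084, 803 and 1199 CPM and 352, 542 and 449 CPM, and *Mup3* had 12764, 12972 and 14705 CPM and 8369, 11312 and 12005 CPM. No value of the 3 livers labelled HKO reached the lowest control for these genes. *Mup15* had 7.99, 13.4 and 5.53 CPM in controls and 0.243, 0.704 and 0.994 CPM in livers labelled HKO, from 4 to 15 counts in the latter.

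*Mup7* had 1401, 1520.2 and 1071 CPM in controls and 492, 773 and 781 CPM in livers labelled HKO, and *Mup14* had 50.8, 51.7 and 35.7 CPM and 12.3, 17.3 and 26.8 CPM. The 2 groups did not overlap for any of the 6 genes, which was so for 17.9% of all genes tested. The log2 fold changes were -3.79 (SE 0.48) for *Mup15*, -1.33 (SE 0.18) for *Mup20*, -1.29 (SE 0.26) for *Mup14*, -1.19 (SE 0.19) for *Mup21*, -0.96 (SE 0.20) for *Mup7* and -0.35 (SE 0.16) for *Mup3*. *Mup15*, *Mup20* and *Mup21* passed the thresholds of a call, as did 0.96% of 12397 genes (0.54% lower), a count from which nothing is read because the contrast was used in the choice. Without mouse 1 labelled HKO 5 of the 6 passed them, and without control mouse 1 or 3 only 2 did.

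Between controls and livers labelled HKO, unmapped reads also differed, with 8.95% to 12.5% in controls and 5.72% to 7.25% in livers labelled HKO. So did some genes of the daily clock, picked after their values were seen. *Arntl*, a core activator of the clock, had 2.49 to 4.32 CPM in controls and 12.0 to 18.6 CPM in livers labelled HKO, and *Dbp*, a clock output factor, 75.8 to 105 and 6.21 to 25.0 CPM. *Usp2* had 94.0 to 135 and 4.04 to 21.1 CPM, while *Nr1d1*, a clock repressor, overlapped between the groups with 131 to 143 and 107 to 170.1 CPM. Markers of lymphocytes summed to 1.34 to 2.56 CPM in controls and 2.88 to 7.34 CPM in livers labelled HKO, without a call among them. The sum of the 8 hepatocyte markers was 91878 to 92158 CPM in controls and 72196 to 101558 CPM in livers labelled HKO. *Sftpc*, a lung surfactant gene and 1 of 4 markers of lung or salivary tissue, was called lower in livers labelled HKO (adjusted p = 0.0238 by edgeR's quasi-likelihood test). Over all single livers *Sftpc* had a median of 0 and a maximum of 1.14 CPM, so this call rests on few reads. No marker of the other liver cell types was called. The part of these differences in the *Mup* values was not tested. The LKO and HKO differences share no mice, but the cohorts differ in the way and age of deletion, and the difference between them was not tested.

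After APAP, the fitted level of each of the 6 *Mup* genes was below that at 0 h at all 5 times, and no pool of either genotype exceeded the range of its own 0 h mice. Of 30 gene and time combinations, 21 lay below the lowest 0 h mouse in LKO pools and 11 in control pools, and the remaining 9 and 19 lay within the range. The share of all genes outside their 0 h range was not computed, and the LKO pools entered the choice of the genes. Nothing is therefore read from these counts or from the difference between the genotypes. *Mup3*, the most abundant gene, had 9284, 8092, 6423, 4659 and 10424 CPM in control pools and 3986, 5422, 7235, 4966 and 5852 CPM in LKO pools at 12, 24, 48, 72 and 96 h. All 5 LKO pools lay below all 4 LKO mice at 0 h, and 4 of 5 control pools below all 4 control mice. *Mup20* had 3418, 5317, 3739, 2523 and 2839 CPM in control pools and 1166, 3229, 2127, 1243 and 1041 CPM in LKO pools.

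*Mup21* had 221, 259, 164, 117 and 181 CPM in control pools and 87.5, 248, 159.6, 109.7 and 77.2 CPM in LKO pools over the same times. *Mup7* had 670.4, 260.5, 690.4, 138 and 385 CPM and 232, 27.9, 160.3, 53.2 and 31.8 CPM, and *Mup14* had 24.6, 8.64, 16.5, 4.94 and 10.3 CPM and 4.23, 1.02, 4.00, 1.00 and 1.26 CPM. *Mup7* and *Mup14* moved alike, both being lower at 24 h than at 12 and 48 h in both genotypes, as the plot of the time course shows. *Mup15* was near the detection limit, with 6, 27, 25, 1 and 25 counts in control pools and 0, 8, 18, 1 and 0 in LKO pools.

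**Figure D2:**
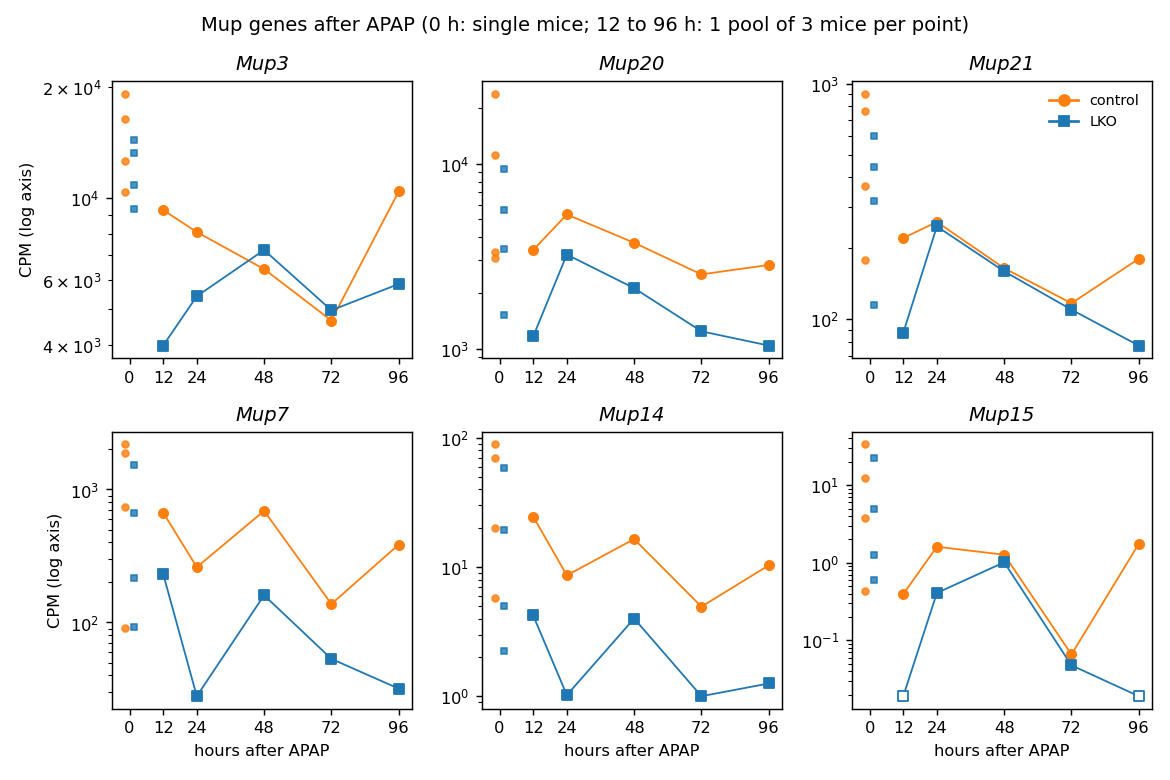
Level in CPM (log axis) of the 6 *Mup* genes against hours after 300 mg/kg APAP, in control (orange circles) and LKO (blue squares) livers, with small points for single mice at 0 h and joined points for pools of 3 mice. Open squares for *Mup15* at 12 and 96 h are pools with 0 counts, drawn below the lowest level because a log axis has no 0.

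The planned fit set both pools of a time point against the 8 mice at 0 h, with genotype as a covariate and 13855 genes. Its LKO pools entered the choice of the genes, so its values are a description. Unmapped reads were 2.63% to 5.84% in the pools and 4.11% to 20.6% in the 8 mice, and their part in these values was not tested. For *Mup3* the log2 fold changes were -1.05 (SE 0.30), -0.99 (SE 0.30), -0.94 (SE 0.30), -1.45 (SE 0.31) and -0.76 (SE 0.30) at 12, 24, 48, 72 and 96 h. *Mup20* had -1.83 (SE 0.71) at 12 h, -0.78 (SE 0.66) at 24 h and -2.04 (SE 0.72) at 72 h. The near-identical *Mup7* and *Mup14* were farthest from 0 h at 72 h, with -3.41 (SE 1.15) and -3.80 (SE 1.22), and *Mup21* had -2.0 (SE 0.60). The median of the 6 was -1.61, -2.10, -1.46, -2.73 and -2.42 over these times, beside -0.0066, -0.00040, -0.0023, -0.033 and -0.018 over all genes. The fitted change of *Mup15* is not given, because at counts as low as 0 it depends on the prior count.

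In this fit the number of the 6 past the thresholds of a call was 3, 3, 1, 5 and 0 over the time points in order, where 31%, 25.6%, 16.4%, 16.8% and 0.462% of all genes did (14.3%, 11.7%, 6.52%, 5.79% and 0.13% lower), and nothing is read from these counts. The counts depended on single libraries, being 0, 0, 1, 1 and 0 without the LKO pool of the time point and 1, 0, 0, 0 and 0 without its control pool. Other settings also moved them. Scaling by library size alone gave 3, 1, 0, 4 and 0, and no genotype covariate gave 2, 1, 0, 3 and 0. DESeq2 gave 4, 4, 1, 6 and 0, and with no filter beyond 1 count the 1 gene at 48 h, *Mup3*, was lost.

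The response to APAP was tested in control livers alone, 1 pool of a time point against 4 mice at 0 h over 14023 genes, in a fit chosen after seeing the data. The lone pool is assumed to vary like the mice, and the control pools had entered the choice of the genes as the reference of the LKO pools. All 6 estimates were below 0 at all 5 times, but only *Mup3* at 72 h passed edgeR's quasi-likelihood test, with a log2 fold change of -1.64 (SE 0.41, adjusted p = 0.0395). That is 1 of 6 at 72 h beside 12.6% of all genes called (4.04% lower). At 12, 24, 48 and 96 h none of the 6 was called, beside 23.2%, 12.5%, 13.4% and 0.0713% of all genes (9.38%, 5.01%, 4.94% and 0.0143% lower). The number of the 6 with an unadjusted p under 0.05 was 0, 0, 1, 3 and 0 at the 5 times, where 5325, 4241, 4276, 4238 and 2111 of all genes had one. DESeq2 and leaving out single mice were not run on control livers alone.

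At 48 h *Mup3* had -1.20 (SE 0.40, adjusted p = 0.086) in control livers, and at 96 h -0.49 (SE 0.38, adjusted p = 0.569), by edgeR's quasi-likelihood test. *Mup21* had -2.24 (SE 0.86, adjusted p = 0.126) at 72 h and *Mup20* -2.03 (SE 1.17, adjusted p = 0.279). *Mup7* and *Mup14*, whose control mice ranged widely, had -3.15 (SE 1.51, adjusted p = 0.202) and -3.21 (SE 1.44, adjusted p = 0.179) at 72 h.

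Other genes were followed in the planned fit of both genotypes, where 31%, 25.6%, 16.4%, 16.8% and 0.462% of all genes were called over the time points in order. Nothing is read from counts near these shares, such as those of the secreted proteins at 12 h. Of the 8 hepatocyte markers 2, 4, 3, 2 and 0 fell at 12, 24, 48, 72 and 96 h and 1 rose at 24 h, with a median log2 fold change of -0.58 at 24 h and -0.087 at 72 h. Their sum was 65204 to 99694 CPM in LKO pools and 87885 to 128981 CPM in control pools. Of 18 other secreted hepatocyte proteins, 3 rose and 3 fell at 12 h, among them the fibrinogen chain *Fgb* (1.14, adjusted p = 0.00238) and transthyretin *Ttr* (-0.98, adjusted p = 0.0232) as log2 fold changes. Of the 12 other lipocalins of the liver, 10 were tested, and at 12 h 3 rose, such as the iron-carrier gene *Lcn2* (4.53, adjusted p = 0.000583), and 2 fell, such as the prostaglandin synthase *Ptgds* (-5.13, adjusted p = 0.000495). At 72 h the medians were 0.12 for the secreted proteins and 0.078 for the lipocalins, beside -2.73 for the 6 *Mup* genes. Markers of other cells changed too, since 3 of 5 neutrophil markers tested rose at 12 and 24 h, 4 of 6 stellate cell markers rose at 72 h, and 3 of 7 markers of Kupffer cells or macrophages rose at 48 and 72 h. At 12 h, 1 of 5 cholangiocyte markers rose, 1 of 5 markers of sinusoidal endothelium rose and 1 fell, and none of 4 lymphocyte markers tested was called. Neutrophil markers summed to 2.41 to 29.4 CPM in LKO pools and 8.71 to 31.9 CPM in control pools, and their part in the *Mup* values was not tested.

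Between LKO and control pools the 5 fitted differences were also below 0, in a contrast used to list the genes. With the time point as a block, the log2 fold change from 12 to 96 h was -2.59 (SE 0.24) for *Mup14*, -2.37 (SE 0.33) for *Mup7*, -1.13 (SE 0.19) for *Mup20*, -0.57 (SE 0.23) for *Mup21* and -0.49 (SE 0.23) for *Mup3*. *Mup15* had too few counts for this fit. *Mup14*, *Mup7* and *Mup20* passed the thresholds of a call, as did 0.579% of 12782 genes (0.329% lower), and nothing is read from this count. Leaving out the pools of 12, 24 or 48 h left 1 of them past the thresholds. The LKO pool lay below the control pool at all 5 times for *Mup7*, *Mup14*, *Mup20* and *Mup21*, which was so for 8.03% of all genes tested. *Mup15* had fewer counts in the LKO pool at 12, 24, 48 and 96 h and 1 count in each at 72 h. *Mup3* lay below at 12, 24 and 96 h and above at 48 and 72 h.

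The gap was widest for *Mup7* and *Mup14* among the 5 genes fitted. For *Mup7* the LKO pool was -3.59 on the log2 scale from the control pool at 96 h and -1.37 at 72 h, its largest and smallest gaps. For *Mup14* it ranged from -2.94 at 24 h to -2.01 at 48 h. *Mup21* was -1.34 at 12 h and -1.22 at 96 h, and -0.063, -0.043 and -0.090 at 24, 48 and 72 h. With 1 pool for each genotype and time, a difference at a single time has no replicate check.

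**Figure D3:**
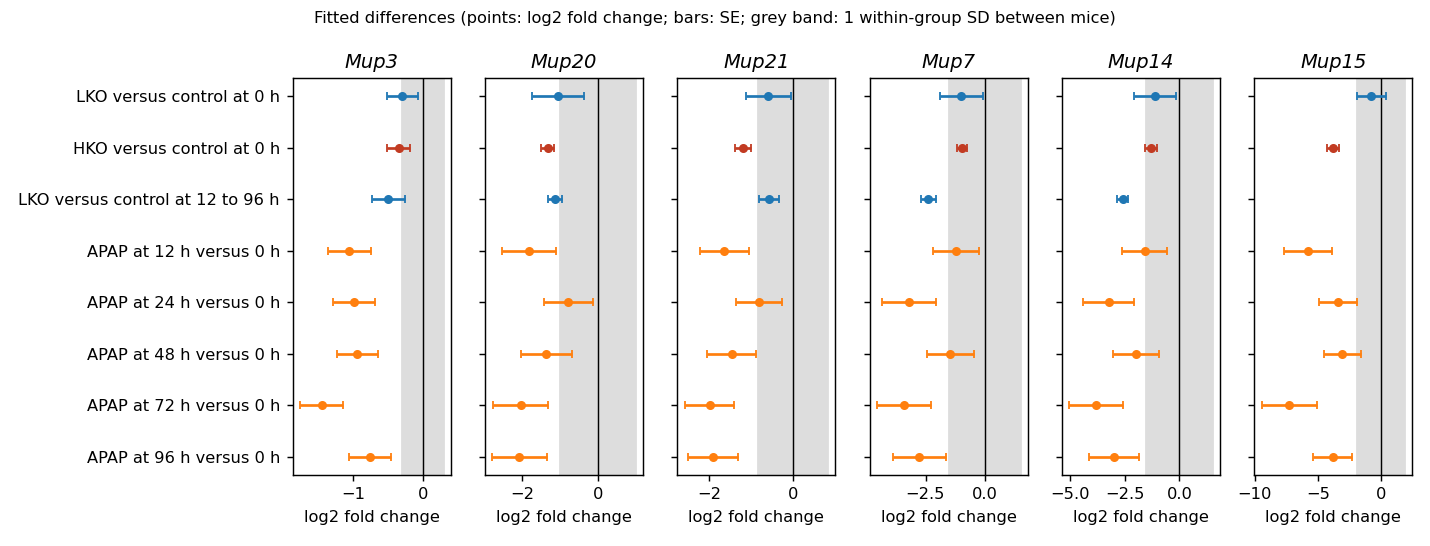
Fitted log2 fold changes (points) with their SE (bars) for the 6 *Mup* genes in 8 comparisons, beside a band of 1 SD between mice of the same group. The band is pooled over all groups of single mice, and the SD within each group of the HKO cohort was smaller for every gene. Blue points are LKO against control, the red point is HKO against control and orange points are APAP against 0 h in the fit of both genotypes, with a separate horizontal scale for each gene. For LKO at 0 h the points of all genes but *Mup20* lie inside the band, that of *Mup3* at its edge. The band extends 1.53, 1.53 and 1.90 to either side for *Mup7*, *Mup14* and *Mup15*.

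Over the 14 single mice, the 6 genes varied together within groups. With each group's mean removed, the Pearson correlation of log2 CPM over the 14 mice ranged from 0.623 to 0.976 over the 15 pairs, with a median of 0.862. It was 0.960 to 0.976 among *Mup7*, *Mup14* and *Mup15*, whose coding sequences are near-identical, and 0.623 to 0.853 for pairs with *Mup3*. The more diverged *Mup20* and *Mup21* had 0.878 with each other. These correlations describe 14 mice whose libraries also differ in unmapped reads, and they rest mainly on the wide range of the LKO cohort. Among the AAV8-TBG-Null livers, mouse 3 was highest for *Mup3*, *Mup20* and *Mup21* but lowest for *Mup7*, *Mup14* and *Mup15*.

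The 10 genes outside the family most like the mean of the 6, over the 14 mice within groups, were led by *Cyp7b1* (r = 0.982), a male-biased hydroxylase of oxysterols, which had 73.0 to 879 CPM. The others were *Kpna4* (0.967), *B3galnt2* (0.966), *Tcaim* (0.965), *Hsp90aa1* (0.963), *Ugt2b1* (0.963), *Hsph1* (0.960), *Clic4* (0.957), *Ubqln1* (0.952) and *Tmem33* (0.950). *Hsp90aa1* and *Hsph1* encode cytosolic heat shock proteins and *Kpna4* a nuclear import receptor. Gene by gene, *Cyp7b1* was nearest to *Mup7* (0.966) and *Mup21* (0.940), and *Selenbp2* to *Mup14* (0.965). *Obp2a*, an odorant-binding lipocalin, was nearest to *Mup20* (0.984), *Srp72* to *Mup15* (0.987) and *Gm4956* to *Mup3* (0.950).

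Within the family, the nearest gene was *Mup12* for *Mup3* (0.884), *Mup1* for *Mup20* (0.893) and *Mup14* (0.983), *Mup7* for *Mup21* (0.887), and *Mup14* for *Mup7* (0.969) and *Mup15* (0.976).

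Genes with sex-biased expression in liver lined up with the *Mup* genes between mice, all of them male. All 17 male-biased genes had a positive correlation with the mean of the 6, and 16 had r over 0.5, beside 16.3% of all genes kept. The highest were *Cyp7b1*, *Ugt2b1* (0.96), a glucuronosyltransferase, the complement gene *C6* (0.93) and *Selenbp2* (0.93), which had 47.3 to 3212 CPM. Of 21 female-biased genes, 15 had enough reads, 14 of these correlated negatively, and 9 had r under -0.5, beside 18.0% of all genes kept. The P450 genes *Cyp2b13* (-0.95), *Cyp2b9* (-0.90) and *Cyp2a4* (-0.87) were lowest, and *Cyp2b13* had 0 to 10.9 CPM.

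The pathway known to drive *Mup* transcription was less uniform. In 20 genes of growth hormone signalling the median r was 0.063, beside -0.046 over all genes, with *Igf1* (0.71), the growth factor that growth hormone induces, highest and the prolactin receptor gene *Prlr* (-0.63) lowest. The receptor gene *Ghr* had 0.50 and the transcription factor gene *Stat5b* -0.40. Among 5 nuclear receptors, the thyroid hormone receptor genes stood at both ends, with *Thrb* at 0.87 and *Thra* at -0.81. Some cell type markers also varied with the *Mup* level between mice. All 7 markers of Kupffer cells or macrophages had positive r, 5 of them over 0.5 (beside 16.3% of all genes), with a median of 0.568. The 8 hepatocyte markers were mixed, with a median of -0.538. Of these, 4 had r under -0.5 (beside 18.0% of all genes), *Asgr1* (-0.85) being lowest, and 3 had positive r, *Pck1* (0.58) being highest. The medians of the other cell type lists lay between -0.457 for neutrophils and 0.027 for cholangiocytes, and their part in the correlations was not tested. The plot of these correlations by gene list shows each gene.

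**Figure D4:**
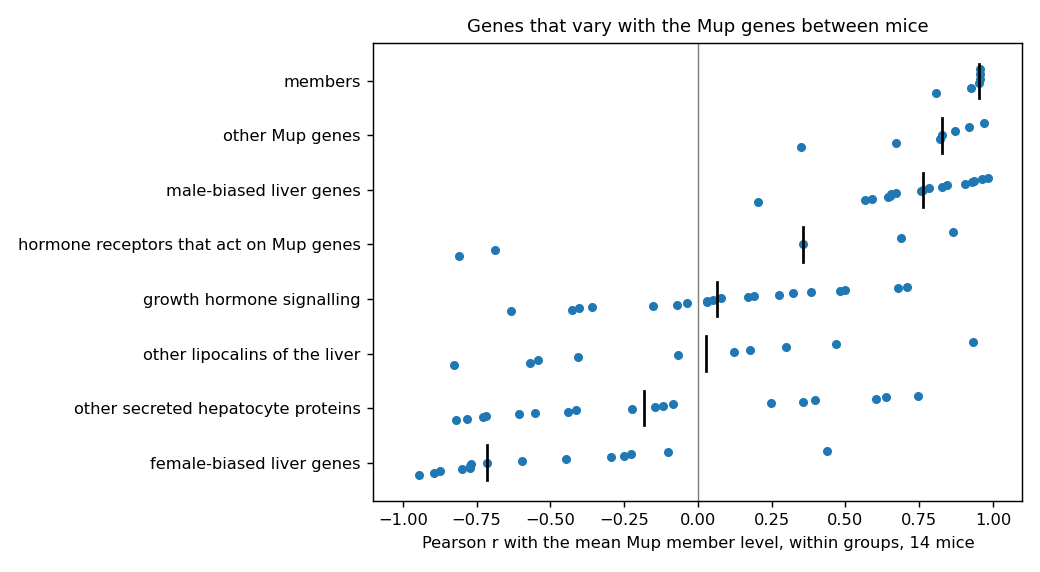
Pearson correlation with the mean level of the 6 *Mup* genes (horizontal axis, no unit) over 14 mice with group means removed, for the genes of 8 lists, with 1 point per gene and a black bar at the median of the list. Male-biased genes lie between 0.21 and 0.98, and female-biased genes between -0.95 and 0.44.

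The gene lists were followed across the comparisons, with APAP in the planned fit of both genotypes, and tested with edgeR's quasi-likelihood test. In that fit 31%, 25.6%, 16.4%, 16.8% and 0.462% of all genes were called at 12, 24, 48, 72 and 96 h. The shares called lower were 14.3%, 11.7%, 6.52%, 5.79% and 0.13%. After APAP, 8, 13, 10, 5 and 0 of the 17 male-biased genes fell at 12, 24, 48, 72 and 96 h and none rose, with medians of -2.07, -2.51, -1.88, -1.23 and -0.79 on the log2 scale. Of the 15 female-biased genes tested, 3, 1, 3, 2 and 1 rose at these times and none fell. At 24 h the largest changes of male-biased genes were *Ugt2b38* (-4.85, adjusted p = 0.0417), the steroid dehydrogenase gene *Hsd3b5* (-3.75, adjusted p = 0.00165), the fatty acid elongase gene *Elovl3* (-3.36, adjusted p = 0.00325) and the transporter gene *Slco1a1* (-3.15, adjusted p = 0.00113). In growth hormone signalling, 4 of 20 fell and none rose at 24 h, *Ghr* (-1.59, adjusted p = 0.00113), *Stat5b* (-1.22, adjusted p = 0.000312), *Igfals* (-0.97, adjusted p = 0.035) and *Hnf4a* (-0.67, adjusted p = 0.0407). At 12 h, 4 fell and 3 rose, the latter *Socs1* (1.83, adjusted p = 0.0326), *Socs3* (1.71, adjusted p = 0.00804) and *Stat3* (1.61, adjusted p = 3.34e-05), where *Socs1* and *Socs3* encode inhibitors of cytokine and growth hormone signalling. The growth hormone counts at 12 and 24 h are near or below the shares of all genes called, and nothing is read from them. At 96 h none of the 20 was called. Of the 5 nuclear receptors, *Thra* (-0.77, adjusted p = 0.0177) fell at 24 h and the estrogen receptor gene *Esr1* (1.20, adjusted p = 0.00649) rose at 48 h, as it did at 72 h.

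Between the genotypes, none of these lists had a call in LKO livers at 0 h, where 0% of all genes were called. The share of all genes called was 0.579% between LKO and control pools and 0.96% in livers labelled HKO. Between LKO and control pools, 6 of 12 female-biased genes tested rose, led by *Cyp2c69* (5.02, adjusted p = 0.00116), *Cyp2c40* (4.77, adjusted p = 0.000196), *A1bg* (3.61, adjusted p = 0.0237) and *Cyp2a4* (3.39, adjusted p = 0.0237), and no male-biased gene of 16 was called, by edgeR's quasi-likelihood test. Each gene named had at most 8.85 CPM in single livers at 0 h. Over all genes, 9 to 177 were called when the pools of 1 time were left out, and the lists were not followed there. The median was 1.65 for the female-biased and -0.0081 for the male-biased genes, beside -1.13 for 5 *Mup* genes. In livers labelled HKO, the female-biased *Cux2* (-4.11, adjusted p = 0.0026) and *Acot3* (-1.60, adjusted p = 0.0182) fell, and of the 17 male-biased genes *Ugt2b38* (-1.60, adjusted p = 0.00541) fell and *Elovl3* (1.09, adjusted p = 0.0238) rose, by the same test. The gene lists were chosen with earlier results of these data known, so the p-values of both comparisons are to be read as a description.

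Of the 14 other *Mup* symbols, *Mup1*, *Mup2*, *Mup6*, *Mup8*, *Mup9*, *Mup10* and *Mup12* had at least 10 counts in at least 3 libraries, 5 had fewer and *Mup16* and *Mup19* had none. At 0 h *Mup12* had 5.30 to 43.7 CPM in control and 2.02 to 12.1 CPM in LKO livers, *Mup2* 2.40 to 75.0 and 2.13 to 45.4, and *Mup1* 2.16 to 21.9 and 0.875 to 8.48. *Mup8* had 0.678 to 15.2 CPM and 0.547 to 3.83 CPM, and *Mup9* 0.0616 to 44.2 and 0 to 11.7. *Mup6* and *Mup10* stayed at or below 1.04 CPM at 0 h. In LKO livers at 0 h, 4 were tested and none called, with a median log2 fold change of -1.49. After APAP, *Mup8* was called lower at 12, 24, 48 and 72 h and *Mup2* at 24, 48 and 72 h among 6 tested, by edgeR's quasi-likelihood test, with adjusted p = 0.0182 for *Mup2* at 24 h. Of all genes, 14.3%, 11.7%, 6.52% and 5.79% were called lower at these times. *Mup8* had 0 to 6 counts in the pools and *Mup2* 8 to 15 from 24 to 72 h, so these calls rest on few reads. The counts of the other *Mup* genes, like those of *Mup7*, *Mup14* and *Mup15*, come from the few stretches that set near-identical genes apart.

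The share of unmapped reads went with the *Mup* level. In the 8 single livers of the LKO cohort it ranged from 4.11% in control mouse 4 to 20.6% in control mouse 3, the mice with the lowest and highest *Mup15* level. Pearson's r with log2 CPM was 0.940 for *Mup20*, 0.915 for *Mup15*, 0.868 for *Mup14*, 0.816 for *Mup7*, 0.773 for *Mup21* and 0.707 for *Mup3* (exact permutation test, two-sided, n = 8, adjusted p from 0.000595 to 0.0578 over 12 relations, unadjusted p from 4.96e-05, the smallest these permutations can give, to 0.0482). Spearman's rho ranged from 0.714 to 1.00 (exact permutation test, unadjusted p from 4.96e-05 to 0.0576). Without the 2 mice farthest from the median share, r was 0.848 to 0.932 over 6 mice. The other 6 of the 12 relations, with multimapping reads, gave r of 0.552 to 0.843 (exact permutation test, adjusted p from 0.0102 to 0.138). In the HKO cohort the groups form 2 clusters of 3 mice, so no correlation was computed there. Which sequences the unmapped reads hold was not tested, since reads were not analysed here.

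**Figure D5:**
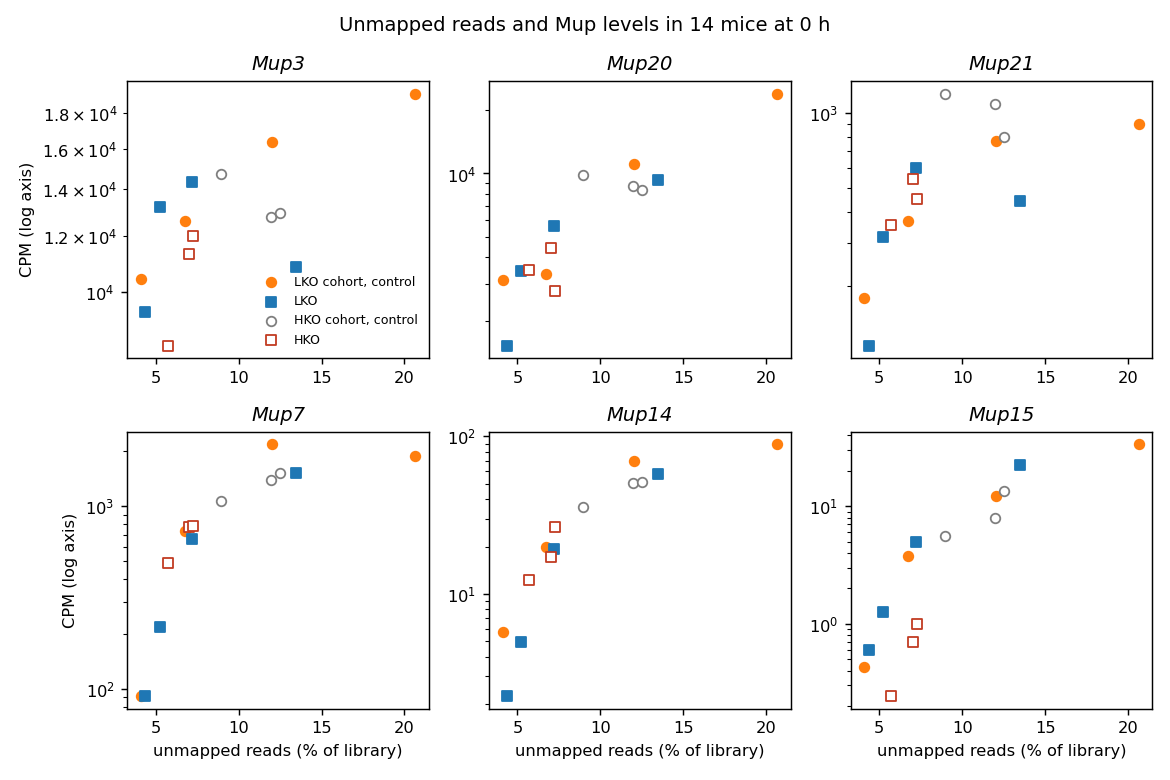
Level in CPM (log axis) of the 6 *Mup* genes against unmapped reads in percent of the library, for 14 single livers at 0 h, with filled points for the LKO cohort and open points for the HKO cohort. Among the 8 filled points r is 0.707 to 0.940, and the control liver at 20.6% stands apart on the right.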

How the data were processed

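Whole-liver RNA was measured in 14 single mice and 10 pools. According to the methods and the labels, reads were trimmed (Trimmomatic) and mapped to mm10 (STAR), and the authors deposited raw read counts per gene, without normalization, as 3 columns (strand disregarded and both strands). The annotation version and read length were not given in the sources used here. The column that disregards strand was used, and the 4 summary rows at the top, which are not genes, entered no total or test. Each such count is of uniquely mapped reads, so reads shared by near-identical *Mup* genes are lost.

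Counts were analysed in R 4.3.3 with edgeR 4.0.16 and limma 3.58.1 (filterByExpr, TMM, quasi-likelihood F-test, Benjamini-Hochberg adjustment over all genes kept, two-sided), with DESeq2 1.42.0 as an alternative, and the scripts were tested on simulated data. Calls needed an adjusted p below 0.05 and a change of 1.5-fold or more. Log2 CPM used a prior count of 2. Groups came from GEO's labels. The mice are separate animals, and the pools of 3 mice stand as single libraries. Same-numbered mice of a cohort did not deviate together, so no pairing was used. Motifs were searched in RefSeq promoters, and transcripts were compared in GENCODE vM21. Alternatives were DESeq2, other scalings, no filter, a stranded column, other covariates, leaving out each library and, chosen after seeing the data, control livers alone for APAP, which has the only p-values printed for APAP on the 6 genes because LKO pools entered their choice.

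The genes and gene lists were chosen with earlier results of these data known. The genes named are the 6 listed, other *Mup* genes with 10 counts in 3 libraries, up to 4 genes per list with the largest called changes, the 10 genes most like the 6, and the nearest gene of each. Lists of sex-biased genes, growth hormone signalling, nuclear receptors, lipocalins, secreted proteins and cell type markers come from general knowledge.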

Additional observations from a re-analysis of the deposited data

Results flagged for a closer look

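In 4 of 26 tests of a single mouse against the rest of its group of 4 (Dixon's test at the 95% level, on CPM without logs), the highest mouse stood apart. A rate of about 1 in 20 holds for independent tests of normally distributed values. The *Mup* genes varied together in the same mice, and log2 CPM was not tested, so nothing is read from the number of flags. The flags fell on *Mup8* and *Mup9* in control mouse 3 of the LKO cohort and on *Mup2* and *Mup9* in LKO mouse 1. *Mup8* was 15.2 CPM and *Mup9* 44.2 CPM in control mouse 3, whose library had 20.6% unmapped reads. *Mup2* was 45.4 CPM and *Mup9* 11.7 CPM in LKO mouse 1, whose library had 13.5% unmapped reads. None of the 6 genes listed stood apart by this test, and groups of 3 mice were not tested.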

How the results depend on the processing

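Of 733 log2 values of the 6 genes under the alternatives, 732 were below 0, and 1 was above, 0.41 for *Mup15* between LKO and control livers at 0 h without control replicate 3 (range over the mice left out, -2.46 to 0.41). These values include the HKO and LKO pool comparisons, whose direction entered the choice of the genes. All are refits of the same libraries for genes that vary together, so they are not independent and the count shows only how little the sign depends on the setting. In the comparisons of APAP at 12, 24, 48 and 72 h with 0 h, 11, 19, 8 and 23 values lost their call and 5, 2, 2 and 4 gained one, and the cause was not tested. The number of the 6 called was 5 with DESeq2 and with no filter beyond 1 count and 0 in a joint fit of 14 mice for HKO, 0 without a block for time for LKO pools, 1 at 24 h with library size alone and with no genotype covariate, 0 at 48 h with library size alone, no filter beyond 1 count or no genotype covariate, and 3 at 72 h with no genotype covariate. In control livers alone, a fit chosen after seeing the data, 0, 0, 0, 1 and 0 of the 6 were called at 12, 24, 48, 72 and 96 h, with 1748 genes at 24 h and 10 at 96 h. With the replicate number as a block, 5 of the 6 and 263 genes were called for HKO and 0 for LKO at 0 h. The numbers are only names, since same-numbered mice correlated at -0.0477 to 0.141 in the HKO cohort and -0.345 to 0.193 in the LKO cohort, and not every mouse correlated best with its own number. For all genes, DESeq2 called 331 for HKO, 606 for LKO pools, 3 for LKO at 0 h and 338 at 96 h, where the main counts were 119, 74, 0 and 64. Other settings gave 255 (no filter) and 31 (joint fit of 14 mice) for HKO, 42 (library size alone), 337 (no filter) and 0 (no block for time) for LKO pools, and 41 (library size alone), 28 (stranded column) and 35 (no genotype covariate) at 96 h. Leaving out each library in turn gave 2 to 5 of the 6 and 54 to 297 genes for HKO, 0 to 0 and 0 to 1 for LKO at 0 h, 1 to 3 and 9 to 177 for LKO pools, and for APAP at 12, 24, 48, 72 and 96 h 0 to 4, 0 to 4, 0 to 2, 0 to 6 and 0 to 0 of the 6, with 2151 to 4419, 1177 to 3631, 507 to 2387, 514 to 2408 and 7 to 83 genes. On the log2 scale, library size alone shifted the median over all genes by 0.14, 0.20 and 0.11 for 24, 48 and 72 h. Depth limits *Mup15*, which had 0 to 27 counts in the pools.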
